A study of Monodelphis domestica with 6 samples.

Results

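The p53 and BCL2 family genes described here are 9 genes that set how readily a cell dies by apoptosis: *MDM2*, *MDM4*, *BCL2*, *BCL2L1*, *MCL1*, *BAX*, *BAK1*, *BCL2L11* and *BBC3*. They were taken by gene symbol from the 35665 rows of the gene tables, and all 9 had a row and enough reads to be tested. The study compared skin fibroblasts of a laboratory marsupial, the opossum *Monodelphis domestica*, with induced pluripotent stem cells made from them. RNA was sequenced from 6 libraries. The 2 neonatal skin fibroblast (neoSF) libraries were wild-type, untreated primary cultures from female pups of the inbred strains FD2M1 and LSD1, 1 library of each, grown in serum-containing fibroblast medium. The 4 monoiPSC libraries came from 1 line of each strain, sampled at passage 15 and passage 25. Each line was made from the neoSFs of its own strain by nucleofection with OriP/EBNA episomal plasmids for human OCT4, SOX2, NANOG, KLF4, LIN28 and cMYC, together with a plasmid for mouse p53DD, a fragment of p53 that acts as a dominant negative. The lines were kept on Matrigel without feeder cells in medium with LIF, bFGF and the ROCK inhibitor Y27632. Each strain is represented by 1 neoSF library and 1 line, and the passages of a line are not separate animals, so p-values measure the spread between these libraries only.

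The libraries held 14278794 and 16982978 counts in the neoSFs and 28684754 to 35564261 in the monoiPSCs. The neoSF libraries were single-end reads made in house and the monoiPSC libraries were longer paired-end reads made by a commercial service, so cell type and sequencing layout cannot be told apart. The 8 fibroblast markers with a row summed to a normalized read count (NRC) of 1514304 and 1684710 in the neoSFs against 5097 to 9453 in the monoiPSCs, and none was at or under 3 counts in the monoiPSCs. The 8 pluripotency markers summed to 128.3 and 204.9 in the neoSFs, where 5 were at or under 3 counts, against 10566 to 15569 in the monoiPSCs. Markers of other cells were called in part. The 5 skeletal muscle markers summed to 438.1 and 1801 in the neoSFs and 2094 to 19999 in the monoiPSCs, highest in LSD1 at passage 25. Only *MYOG* was called (higher) of the 4 tested, and *MYF5* had too few reads to be tested. The melanocyte sum, from 4 of 5 markers, was 252.8 and 402.1 against 4601 to 15555, and *DCT* alone carried the difference (1.95 and 1.58 against 4372 to 15279). *MITF* was not called (log2 fold change -0.11, edgeR adjusted p 0.770), and *TYR* and *MLANA* were too low to be tested. Keratinocyte markers (3 of 5 with a row) summed to 56.6 and 156.0 against 0 to 6.7, endothelial markers to 160.4 and 262.7 against 74.1 to 151.9, and blood cell markers to 105.0 and 121.3 against 41.4 to 48.2. Called lower were *DSG3* of 1 keratinocyte marker tested, *VWF* of 2 endothelial and *CSF1R* of 2 blood cell markers, beside 21.6% of all genes tested. These genes entered the test only through the neoSFs, where they were high, so the filter favoured a lower call. Among markers too low to be tested, *PECAM1*, *CDH5* and *SPI1* were higher in every monoiPSC library, and *KRT14* and *TP63* lower. The part of these cells in the results below was not tested. In such bulk libraries, fewer cells of a type and less RNA per cell cannot be told apart.

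The p53 protein is a transcription factor that stress switches on. MDM2 and MDM4 hold it in check, MDM2 by marking it for breakdown and MDM4 by blocking its activity, and *MDM2* is itself a p53 target. Among the genes p53 switches on are *BAX* and *BBC3*, which link it to the BCL2 family. In that family the antiapoptotic proteins BCL2, BCL-xL (*BCL2L1*) and MCL1 restrain BAX and BAK (*BAK1*), which otherwise form pores in the outer mitochondrial membrane. The BH3-only proteins BIM (*BCL2L11*) and PUMA (*BBC3*) bind the antiapoptotic proteins and so release the pore formers. Pluripotent stem cells are known for dying readily after DNA damage or dissociation.

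Values are given as NRC, the count after the authors' scaling of each library. A gene was called changed where the groups differed by 2-fold or more and edgeR's adjusted p (Benjamini-Hochberg, over all 13072 genes tested) did not exceed 0.05. By that rule, 5 of the 9 genes were called in monoiPSC against neoSF. *BCL2*, *BAX* and *BBC3* rose, and *MCL1* and *BAK1* fell. *BCL2* entered the test only through the monoiPSCs, where it was high. Of all genes tested, 45.9% were called, 24.3% higher and 21.6% lower, so the share called among the 9 was near that background. A further 2 of the 9, *MDM4* and *BCL2L1*, were lower and passed the adjusted p but not the fold, and 62.2% of all genes passed the adjusted p alone. *MDM2* and *BCL2L11* passed neither. For 7 of the 9 genes no monoiPSC library overlapped a neoSF library, beside 73.2% of all genes tested. The median log2 fold change was 0.01 over the 9 genes and 0.08 over all genes tested. Among the antiapoptotic genes and among the pore formers, calls were made in both directions. An exact permutation test of a single gene over the 15 ways to split the 6 libraries cannot go below a two-sided p of 0.0667, and that is what it gave for the 5 called genes and *MDM4*.

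**Figure D1:**
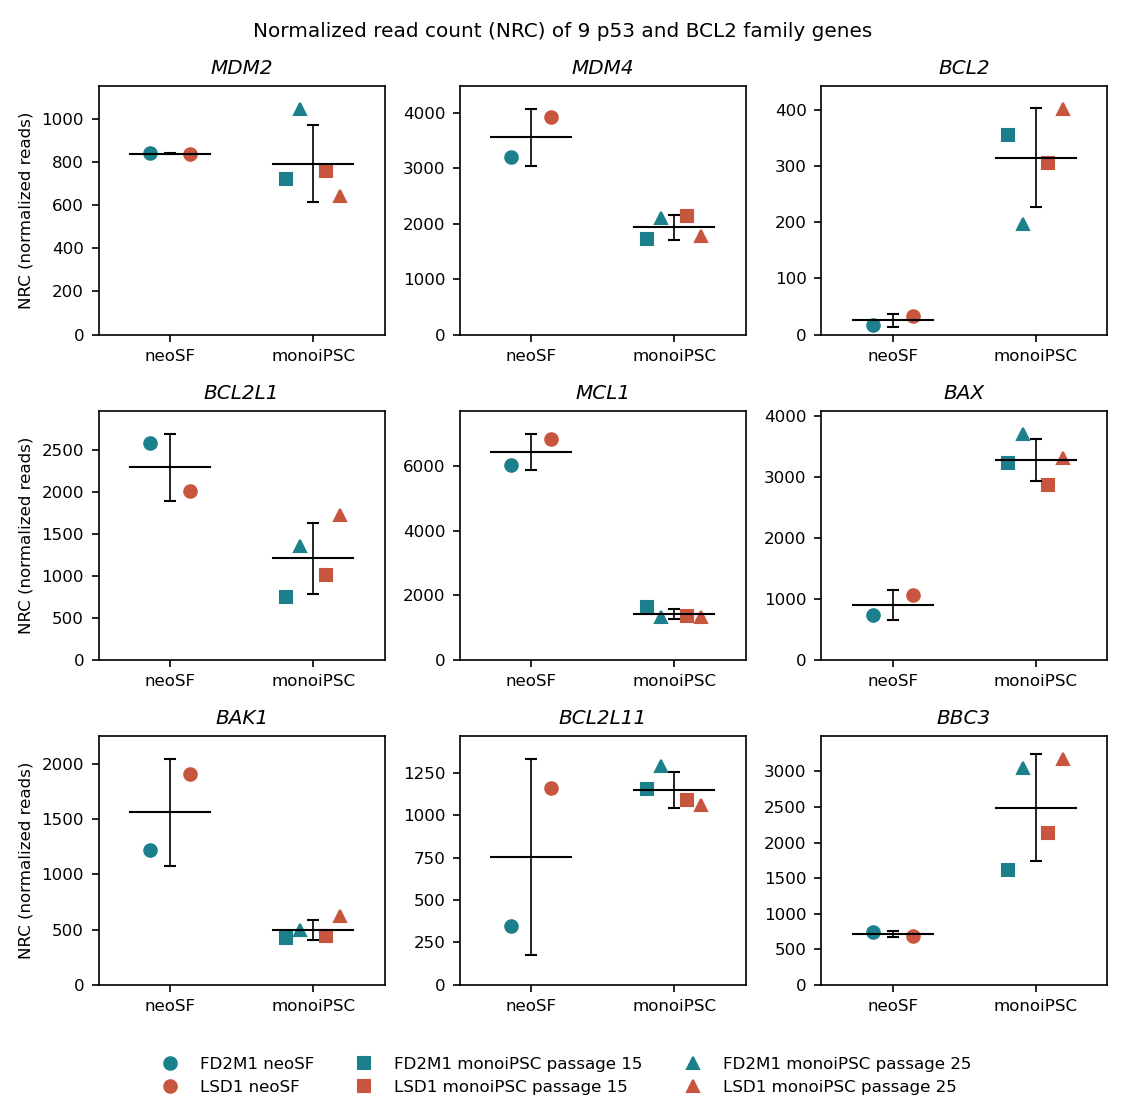
NRC (y axis, each from 0) of the 9 genes in the 2 neoSF and 4 monoiPSC libraries, 1 panel per gene. Points are libraries, coloured by strain and shaped by passage, and black bars are the mean ± SD. *BCL2*, *BAX* and *BBC3* lie higher in every monoiPSC library, *MDM4*, *BCL2L1*, *MCL1* and *BAK1* lower, and *MDM2* and *BCL2L11* overlap.

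*MDM2* (gene 100021398, chromosome 8 of MonDom5), the ubiquitin ligase that keeps p53 low, had an NRC of 841.0 in FD2M1 and 840.2 in LSD1 neoSFs. The FD2M1 line stood at 724.5 at passage 15 and 1049.5 at passage 25, and the LSD1 line at 760.5 and 641.4. The neoSFs were nearly equal and the monoiPSCs lay on both sides of them. The log2 fold change was 0.01 ± 0.22 (SE) with an edgeR adjusted p of 0.961. Its sign turned with the scaling and with the libraries kept, from -0.15 to 0.12 over 14 alternatives, so no direction can be given.

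*MDM4* (gene 100017700, chromosome 2), which binds p53 without degrading it, had an NRC of 3199 and 3930.4 in FD2M1 and LSD1 neoSFs. Passages 15 and 25 of the FD2M1 line gave 1720.3 and 2105, and those of the LSD1 line 2141 and 1773. All 4 monoiPSC libraries lay under both neoSFs. The log2 fold change was -0.79 ± 0.16 (SE), a 1.73-fold difference, with an edgeR adjusted p of 0.00417. It passed the adjusted p and missed the 2-fold limit, and the adjusted p stayed between 7.29e-05 and 0.0365 over 14 alternatives. Within a library, the count of *MDM2* relative to *MDM4* was higher in every monoiPSC library, and the ratio was 1.71-fold higher on average.

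*PPM1D*, which encodes the phosphatase WIP1 that damps the p53 response, had an NRC of 961.7 and 832.8 in FD2M1 and LSD1 neoSFs against 1170.3 to 1712 in the monoiPSCs. Its log2 fold change of 0.77 ± 0.19 (SE) passed the adjusted p (0.0107, edgeR) and not the fold.

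Among the antiapoptotic members, *BCL2* and *MCL1* moved apart. *BCL2* (gene 100016570, chromosome 3), which guards the mitochondrial membrane against BAX and BAK, had an NRC of 17.2 and 33.8 in FD2M1 and LSD1 neoSFs. The FD2M1 line stood at 356.7 at passage 15 and 196.6 at passage 25, and the LSD1 line at 305.8 and 402.9. Every monoiPSC library was well above both neoSFs, and the 4 spread over about a 2-fold range with FD2M1 at passage 25 the lowest. The log2 fold change was 3.71 ± 0.46 (SE), 13.1-fold, with an edgeR adjusted p of 0.000442. The neoSF values rest on counts of 8.83 and 21.3, so the size of the change is less sure than its direction. *BCL2* entered the test only through the monoiPSCs, since the FD2M1 neoSFs were under the NRC of 20 that the filter asked of both neoSFs. In another genome assembly of the species, *BCL2* overlaps 2 long noncoding RNA genes. Of these, 1 had a row, with 0 counts in every library, the other was not analysed here, and whether the counting used strand is not given in the sources used here.

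*MCL1* (gene 100017262, chromosome 2), a short-lived antiapoptotic protein, had an NRC of 6049 and 6848 in FD2M1 and LSD1 neoSFs. Passages 15 and 25 of the FD2M1 line gave 1635 and 1311, and those of the LSD1 line 1355 and 1338. The groups were far apart and the monoiPSC libraries were close to each other except for FD2M1 at passage 15. *MCL1* fell by 2.10 ± 0.15 (SE) on the log2 scale, 4.28-fold, with an edgeR adjusted p of 4.1e-05, which was the smallest adjusted p of the 9 genes.

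*BCL2L1* (gene 100010654, chromosome 1), the gene of BCL-xL, had an NRC of 2578 and 2014 in FD2M1 and LSD1 neoSFs. The FD2M1 line stood at 746.1 at passage 15 and 1350.5 at passage 25, and the LSD1 line at 1015 and 1724. The groups did not overlap, but LSD1 at passage 25 came near the LSD1 neoSFs. The log2 fold change was -0.83 ± 0.31 (SE), 1.78-fold, with an edgeR adjusted p of 0.0487. That adjusted p ran from 0.0139 to 0.213 over 14 alternatives and was above 0.05 in 7 of them. With strain as a block, which pairs each line with its own neoSFs, it was 0.0608. Without LSD1 at passage 25, the monoiPSC library with the highest *BCL2L1*, the log2 fold change was -1.06 with an edgeR adjusted p of 0.0139 and *BCL2L1* was called lower. Without FD2M1 at passage 15, the lowest, it was -0.66 with an adjusted p of 0.0589. LSD1 at passage 25 also had the highest skeletal muscle marker sum (19999 against 2094 to 6771 in the other monoiPSCs), and a link to *BCL2L1* was not tested.

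The 3 other antiapoptotic genes give the setting. *BCL2L10*, which encodes a further antiapoptotic relative, had an NRC of 2656 and 3611 in the neoSFs against 928 to 1240.5 in the monoiPSCs and fell by 1.38 ± 0.18 (SE) on the log2 scale (edgeR adjusted p 0.000537). *BCL2L2*, the gene of BCL-W, was at 1482 and 1538 against 1222 to 1461, a log2 fold change of -0.08 (adjusted p 0.651). *BCL2A1* was at 0 in both neoSFs and at 0 to 11.2 in the monoiPSCs, too low to be tested. Of the 6 antiapoptotic genes, 5 were tested, 1 rose and 2 fell (24.3% and 21.6% over all genes tested), and the median log2 fold change was -0.83. *BCL2* was the only one of the 5 called higher. It was also the only one of them that entered the test through the monoiPSCs alone, where it was high.

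The pore-forming effectors split as well. *BAX* (gene 100030412, chromosome 4), which moves from the cytosol to mitochondria when activated, had an NRC of 727.8 and 1069 in FD2M1 and LSD1 neoSFs. Passages 15 and 25 of the FD2M1 line gave 3228 and 3715, and those of the LSD1 line 2867 and 3319. The lowest monoiPSC library was far above the highest neoSF. *BAX* rose by 1.96 ± 0.21 (SE) on the log2 scale, 3.90-fold, with an edgeR adjusted p of 0.000239.

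*BAK1* (gene 100027503, chromosome 2), whose protein sits in the mitochondrial membrane at all times, had an NRC of 1221.5 and 1905 in FD2M1 and LSD1 neoSFs. The FD2M1 line stood at 424.5 at passage 15 and 495.7 at passage 25, and the LSD1 line at 444.6 and 620.6. The groups did not overlap. *BAK1* fell by 1.56 ± 0.23 (SE) on the log2 scale, 2.95-fold, with an edgeR adjusted p of 0.000942. In the other assembly it overlaps 1 further gene, which had 0 to 3.12 counts here. The remaining effector, *BOK*, had an NRC of 1367 and 1122 against 60.7 to 71.2 and fell by 4.17 ± 0.18 (SE) on the log2 scale (edgeR adjusted p 9.69e-06). All 3 effector genes were called, 1 higher and 2 lower, beside 45.9% called over all genes tested.

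**Figure D2:**
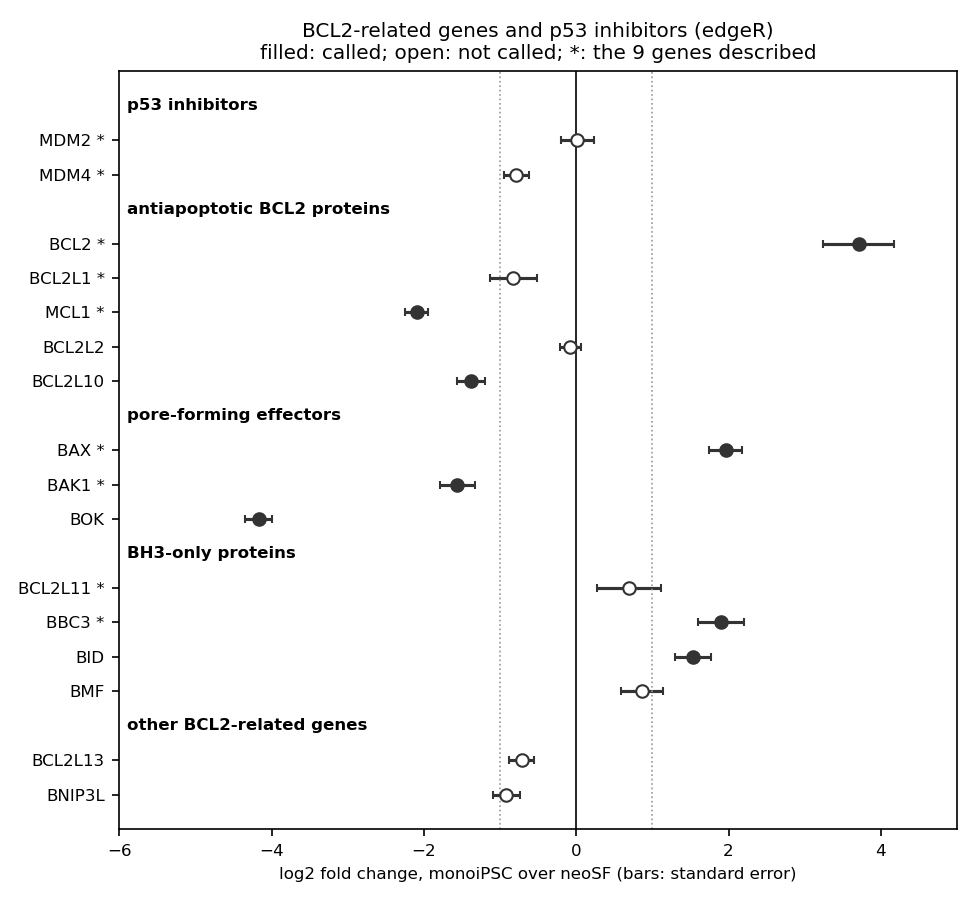
edgeR log2 fold change of monoiPSC over neoSF (x axis) with its standard error for the 2 p53 inhibitors and the 14 BCL2-related genes tested, grouped by role. Filled points were called, open points were not, dotted lines mark 2-fold, and stars mark the 9 genes. Called genes lie on both sides of 0 among the antiapoptotic genes (*BCL2* against *MCL1* and *BCL2L10*) and among the effectors (*BAX* against *BAK1* and *BOK*).

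Among the BH3-only genes, *BBC3* (gene 100020711, chromosome 4), the p53 target that encodes PUMA, had an NRC of 744.2 and 685.7 in FD2M1 and LSD1 neoSFs. Passages 15 and 25 of the FD2M1 line gave 1614 and 3042, and those of the LSD1 line 2136 and 3178. All monoiPSC libraries were above both neoSFs, and in each line passage 25 was above passage 15. *BBC3* rose by 1.90 ± 0.30 (SE) on the log2 scale, 3.73-fold, with an edgeR adjusted p of 0.00137.

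*BCL2L11* (gene 100033215, chromosome 1), which encodes BIM, had an NRC of 344.7 in FD2M1 and 1163 in LSD1 neoSFs. The FD2M1 line stood at 1154 at passage 15 and 1292 at passage 25, and the LSD1 line at 1091 and 1057. The 4 monoiPSC libraries and the LSD1 neoSFs all lay between 1057 and 1292, and the FD2M1 neoSFs stood alone below them. The log2 fold change was 0.70 ± 0.42 (SE) with an edgeR adjusted p of 0.186. It rested on which neoSF library was kept, since it was 1.84 with an adjusted p of 0.00112 without the LSD1 neoSFs, and 0.07 without the FD2M1 neoSFs.

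Of the other BH3-only genes, *BID*, which carries the death receptor signal to mitochondria, had an NRC of 208 and 231.5 against 466.7 to 690.9 and rose by 1.53 ± 0.24 (SE) on the log2 scale (edgeR adjusted p 0.00114). *BMF*, a BH3-only gene tied to loss of attachment, was at 389.6 and 411.2 against 534.8 to 942.9, and its log2 fold change of 0.87 passed the adjusted p (0.0264) and not the fold. *HRK* was at 0 to 1.87 in all libraries. Of the 8 BH3-only genes listed, *PMAIP1*, *BAD* and *BIK* were not found by symbol or gene number and were not analysed here, 4 were tested, 2 rose and none fell, where 24.3% of all genes rose and 21.6% fell. The mitophagy receptor gene *BNIP3L* (4961 and 5163 against 2003 to 2941, log2 fold change -0.92, edgeR adjusted p 0.00334) and *BCL2L13* (1001 and 1075 against 513.9 to 694.7, -0.72, adjusted p 0.00771) passed the adjusted p and not the fold. *BCL2L15* had an NRC of 0 in every library. Over all 14 BCL2-related genes tested, 4 rose and 4 fell, beside 24.3% and 21.6% of all genes. *BCL2*, among those that rose, entered the test only through the monoiPSCs.

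Ratios of the counts of pairs of genes within a library were also taken, some between opposing genes and some between genes of the same role. The library's scaling factor cancels in such a ratio. Transcript length drops out of its change only if single-end and paired-end reads count a gene alike, which was not tested. The pairs were picked after the values were seen, share genes, and are a description with no test. *BAX* relative to *BAK1*, the effector pair, was at a log2 ratio of -0.75 and -0.83 in FD2M1 and LSD1 neoSFs. The FD2M1 line gave 2.93 and 2.91 at passages 15 and 25, and the LSD1 line 2.69 and 2.42. The ratio was 11.5-fold higher in the monoiPSCs. *BAX* relative to *MCL1* was 17.0-fold higher, *BBC3* relative to *MCL1* 15.4-fold, *BCL2L11* relative to *MCL1* 8.29-fold and *BAX* relative to *BCL2L1* 7.33-fold. These denominators are antiapoptotic genes that were lower in the monoiPSCs. *BCL2*, also antiapoptotic, rose by more than *BAX* or *BBC3* (log2 fold change 3.71 against 1.96 and 1.90). No ratio with *BCL2* as the denominator was taken. *BCL2* relative to *MCL1* was 57.9-fold higher, with the low *BCL2* counts of the neoSFs in it, and *BCL2L1* relative to *MCL1* 2.32-fold. No neoSF library overlapped a monoiPSC library in any of these ratios. Where the upper gene was higher and the lower gene lower in every monoiPSC library, as in *BAX* relative to *BAK1*, that follows from the single genes. The share over other pairs of genes was not taken.

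**Figure D3:**
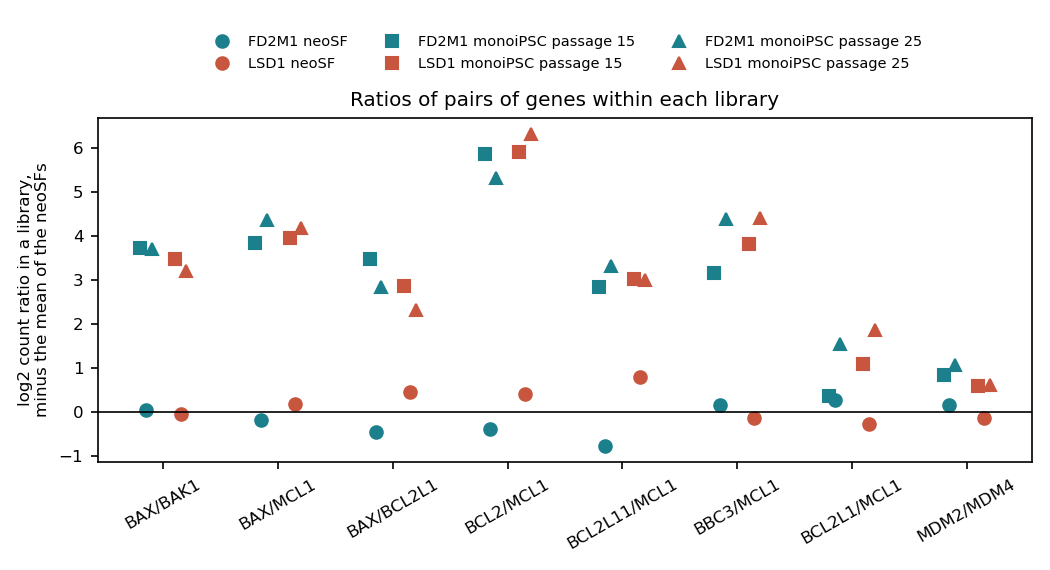
log2 ratio of the counts of 2 genes within a library, minus the mean of the 2 neoSFs (y axis), for 8 pairs (x axis). Points are libraries, coloured by strain and shaped by passage. In each pair the monoiPSC points lie above both neoSF points, by most in *BCL2*/*MCL1*, and in *BCL2L1*/*MCL1* the FD2M1 passage 15 point lies just above the FD2M1 neoSFs.

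Each line can also be set against the neoSFs of its own strain, with 1 neoSF library a strain and so no test within a strain. *BCL2* was higher by 4.37 and 3.51 on the log2 scale in FD2M1 at passages 15 and 25, and by 3.18 and 3.58 in LSD1. *MCL1* was at -1.89 and -2.21 in FD2M1 and at -2.34 and -2.36 in LSD1. Each of these genes had 1 sign in all 4 monoiPSC libraries, and so had *BAX*, *BBC3*, *BAK1*, *MDM4* and *BCL2L1*. *BAX* was higher by 2.15 and 2.35 in FD2M1 and by 1.42 and 1.63 in LSD1, and in *BBC3* the values were 1.12 and 2.03 against 1.64 and 2.21. *BAK1* was at -1.52 and -1.30 in FD2M1 and -2.10 and -1.62 in LSD1. *MDM4* was at -0.89 and -0.60 against -0.88 and -1.15. *BCL2L1*, at -1.79 and -0.93 against -0.99 and -0.22, was nearer 0 at passage 25 in both lines. *MDM2* had both signs in FD2M1, -0.22 and 0.32, and was at -0.14 and -0.39 in LSD1. The strains lay furthest apart in *BCL2L11*, at 1.74 and 1.91 in FD2M1 and -0.09 and -0.14 in LSD1.

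**Figure D4:**
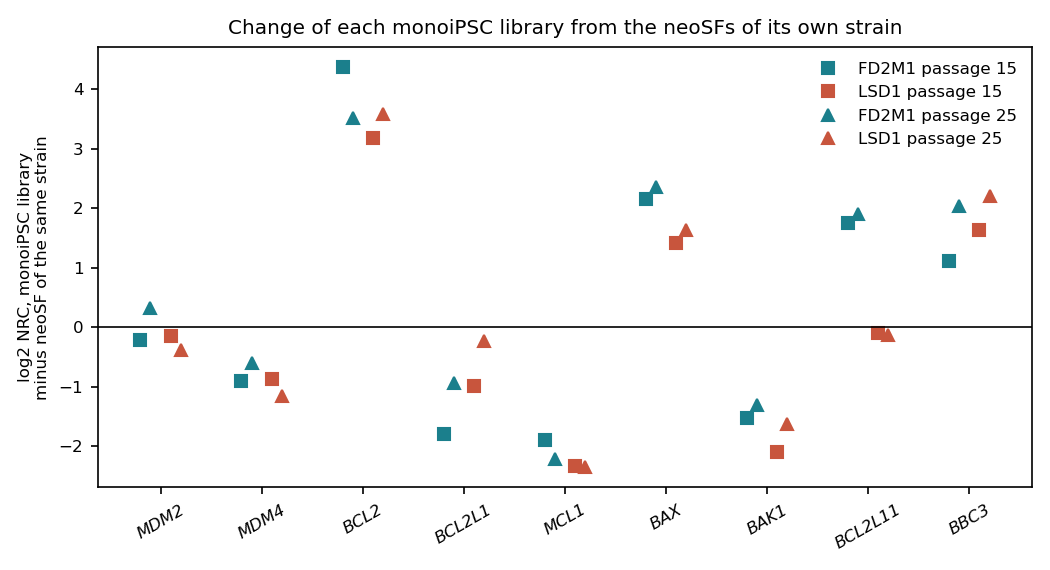
log2 difference of each monoiPSC library from the neoSF library of its own strain (y axis) for the 9 genes (x axis), coloured by strain and shaped by passage. The strains overlap in *MDM4*, *MDM2*, *BCL2*, *BCL2L1* and *BBC3* and not in *MCL1*, *BAX*, *BAK1* and *BCL2L11*, which is at 1.74 and 1.91 in FD2M1 and just under 0 in LSD1.

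The difference between the strains in the change was tested as an interaction. For *BCL2L11* the change in LSD1 minus the change in FD2M1 was -1.95 ± 0.30 (SE) on the log2 scale, with an unadjusted p of 0.00064 and an adjusted p of 0.166 by edgeR, so it was not called. DESeq2 gave -1.93 with an adjusted p of 0.000916 and called it. Over 7 alternatives the adjusted p ran from 0.000916 to 0.253, and the value stayed between -2.03 and -1.88. The interaction rests on the 1 neoSF library of each strain, and its spread comes from the passages of each line. For the other 8 members edgeR adjusted p-values were 0.541 to 0.961 and none was called by either tool. Over all genes edgeR called 0.0841% and DESeq2 2.33% in this interaction.

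Among the monoiPSCs alone, 12252 genes were tested between passages and between lines, and edgeR called 0% in both. Without adjustment, 1145 genes by passage and 1736 by line had a p under 0.05 (edgeR), and DESeq2 called 115 and 192. *BCL2L1* was higher at passage 25 than at passage 15 by 0.80 ± 0.16 (SE) on the log2 scale with strain in the model, and *BBC3* by 0.73 ± 0.17. Their edgeR adjusted p-values were 0.268 and 0.297, and DESeq2 gave 0.0565 and 0.0669, so neither passed. The other 7 genes differed by -0.24 (*BCL2*) to 0.34 (*BAK1*). Between the LSD1 and FD2M1 lines, the differences ran from -0.32 ± 0.24 for *MDM2* to 0.41 ± 0.34 for *BCL2*, and no member passed. These comparisons had 2 libraries a side, so a difference that missed the threshold is not shown to be absent.

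The wider p53 network gives the surroundings of *MDM2* and *MDM4*. Of 21 p53 family members and regulators, 19 were tested, 4 rose and 1 fell (24.3% and 21.6% over all genes tested), and 7 more passed the adjusted p under 2-fold, with a median log2 fold change of 0.50 beside 0.08 over all genes. *CHEK1*, the kinase that restrains the cycle after replication stress, had an NRC of 229.9 and 120.2 against 1056 to 1669 and rose by 3.00 ± 0.33 (SE) on the log2 scale (edgeR adjusted p 0.000253). The checkpoint kinase gene *CHEK2* rose by 2.20 and *TP53BP1*, whose protein marks DNA breaks, by 1.16. *CDKN2A*, whose locus encodes inhibitors of the cell cycle and of MDM2, had an NRC of 2672 and 2465 against 226.9 to 554.8 and fell by 2.76 ± 0.32 (SE) on the log2 scale (adjusted p 0.000295). *TP63* and *TP73* were too low to be tested.

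Of 35 p53 target genes listed, 30 were tested, 4 rose and 7 fell, and 5 passed the adjusted p under 2-fold. Over all genes tested, 24.3% rose and 21.6% fell. The median log2 fold change was 0.00. *BAX* and *BBC3* were among the 4 that rose, with *PLK3* (90.3 and 139.9 against 466.9 to 693.2, log2 fold change 2.43, edgeR adjusted p 0.000388), a stress-induced kinase gene, and *GADD45A*, named here after its values were seen, at 1.82. *CDKN1A*, the gene of the cell cycle inhibitor p21, had an NRC of 6418 and 10552 in the neoSFs against 2899.5 to 3511 in the monoiPSCs and fell by 1.37 ± 0.21 (SE) on the log2 scale (edgeR adjusted p 0.00115). *THBS1*, which encodes a matrix protein abundant in fibroblasts, fell by 5.61, and *PHLDA3*, an inhibitor of AKT, fell by 1.68.

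Downstream of the pore, 13 of 18 apoptosome, caspase and inhibitor genes were tested, 2 rose and 3 fell (24.3% and 21.6% over all genes tested), with a median of 0.13. *CYCS*, *CASP8*, *CASP10*, *BIRC2* and *BIRC3* were not found by symbol or gene number and were not analysed here. *BIRC5*, which encodes survivin, a protein of dividing cells, had an NRC of 521.3 and 412.7 against 3268 to 4538 and rose by 3.18 ± 0.23 (SE) on the log2 scale (edgeR adjusted p 4.06e-05). *HTRA2*, a mitochondrial protease gene, rose by 1.52. *CASP2* fell by 1.38, *ENDOG*, a mitochondrial nuclease gene, by 1.01 and the caspase inhibitor gene *XIAP* by 1.00. *ENDOG* and *XIAP* lay at the edge of the fold limit, at 2.01-fold and 2.00-fold. In this list 4 more genes passed the adjusted p under 2-fold, 3 higher and 1 lower. In the death receptor pathway *FAS*, *FASLG*, *TNFRSF10A* and *FADD* were not found by symbol or gene number and were not analysed here. The other 7 of 11 genes were tested and 4 fell, beside 21.6% of all genes tested, with a median of -1.83. These were the receptor gene *TNFRSF1A* (5565 and 4380 against 768 to 1126, log2 fold change -2.29, edgeR adjusted p 0.000101), *CFLAR*, which restrains caspase 8 (-2.32), and the adaptor and kinase genes *TRADD* (-2.16) and *RIPK1* (-1.83). None of the 7 was called higher, beside 24.3% of all genes. *TRAF2* was higher in every monoiPSC library, and its log2 fold change of 0.55 passed the adjusted p (0.0227, edgeR) and not the fold.

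**Figure D5:**
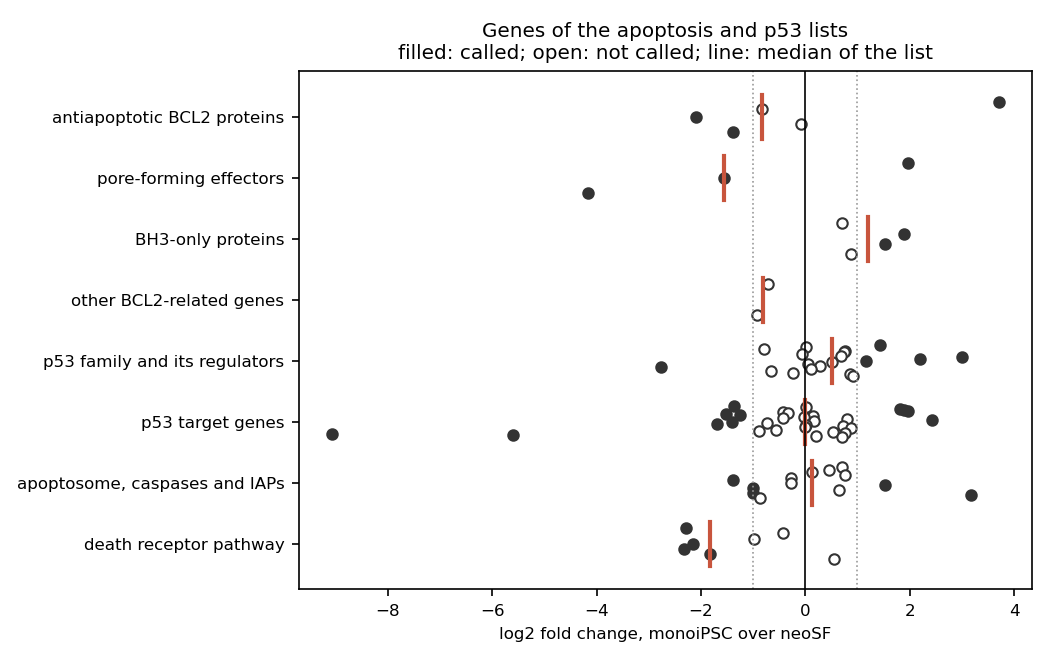
edgeR log2 fold change of monoiPSC over neoSF for each tested gene of the pathway lists, with the median of each list marked. The death receptor genes have a median of -1.83 and the p53 family and regulators 0.50, and the p53 targets and apoptosome genes lie on both sides of 0 with medians of 0.00 and 0.13.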

How the data were processed

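Per the labels and the study's methods, reads were mapped to MonDom5 and counted by gene in StrandNGS, and the authors deposited a table of estimated counts and a table of log2 normalized values. Of the count values above 0, 86.8% were not whole (by more than 1e-06), so counts were rounded. The normalized read count (NRC) is 2 raised to the deposited log2 value and equals the count times 1 factor per library, with products under 1 given as 0. How read pairs were counted is not given in the sources used here. The authors' methods used a moderated test on log2 values. A gene was tested where both neoSFs, or all 4 monoiPSCs, reached an NRC of 20 (13072 of 35665) with edgeR 4.0.16 (quasi-likelihood, TMM) in R 4.3.3, adjusted by Benjamini-Hochberg over all genes tested and called at 0.05 and 2-fold. The 3-count floor equals an NRC of 5.85 and 4.75 in the neoSFs and 1.55 to 1.88 in the monoiPSCs. Scripts were tested on simulated data.

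The 9 genes, the lists and the choice of ratios were made with earlier results of these data known. Named genes were all 9, every BCL2-related gene with a row, the 3 highest and 3 lowest called genes of each other list, and *CDKN1A* and *PPM1D*. A few genes that this rule names are not reported here. Some genes were matched through their RefSeq gene number, and overlaps come from the RefSeq table of the mMonDom1.pri assembly, from which no coordinates are given. Strain pairs the libraries, since each line was made from the neoSFs of its strain. Deviations from the group means of same-strain libraries correlated at r = 0.04 over 13072 genes (across genes, not replicates). Alternatives were DESeq2 1.42.0, limma 3.58.1 on log2 values, RLE and upper quartile scaling, no filter, rounding down, strain as a block, summed passages and leaving out each library. No protein or promoter sequence was used here.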

Additional observations from a re-analysis of the deposited data

Results flagged for a closer look

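*MCL1* in the FD2M1 monoiPSCs at passage 15 had an NRC of 1635, while the other 3 monoiPSC libraries lay between 1311 and 1355. Its gap to the nearest library, divided by the range of the group, was 0.863, above Dixon's critical value for 4 samples. It was 1 of 16 genes checked, and chance flags about 1 in 20 groups. All 4 values were far below the neoSFs, and *MCL1* stayed called lower when any 1 library was left out.

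The change of *BCL2L11* differed between the strains by -1.95 on the log2 scale (LSD1 minus FD2M1). The monoiPSC libraries of both strains were close to each other (1057 to 1292), and the neoSFs were at 344.7 in FD2M1 and 1163 in LSD1. With edgeR the adjusted p was 0.166 and with DESeq2 0.000916. With 1 neoSF library a strain, strain and culture cannot be told apart.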

How the results depend on the processing

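The calls of *BCL2*, *MCL1*, *BAX*, *BAK1* and *BBC3* held in all 14 alternatives, and no call of a member was lost. Log2 fold changes were judged by direction and by the call (adjusted p and 2-fold together). Counts of genes or members called were judged by their ratio to the main count, and a small shift was taken as unchanged. Of the alternatives' values, 273 were unchanged, 8 moved, 8 reversed and 3 passed the threshold newly. Those that moved were all counts of genes called. *MDM2* turned to -0.0346 with RLE, -0.0347 with DESeq2, -0.11 with limma, -0.0113 with passages summed, -8.22e-06 with strain as a block, and ranged from -0.15 to 0.0889 when 1 library was left out (-0.15 without FD2M1 at passage 25). The adjusted p of *BCL2L1* rose above 0.05 in 7 of 14 alternatives. *BCL2L1* ranged from -1.06 to -0.65, and *BCL2L11* from 0.0714 to 1.84, when 1 library was left out. Members called were 5 to 6. The *BCL2L11* strain difference was -1.93 with DESeq2. The genes called in the strain difference were 11 with edgeR, 304 with DESeq2, 0 with limma and 0 to 110 without 1 monoiPSC library. DESeq2 called 115 genes by passage and 192 by line, edgeR 0. The *BBC3* strain difference ranged from -0.0885 to 0.81 without 1 monoiPSC library (-0.0885 without FD2M1 at passage 15), and the *MDM4* passage difference was 0.00051 with DESeq2 against -0.01. The cause was not tested. The replicate block by strain left 6012 genes called against 6000 and changed no member's call, though *BCL2L1* no longer passed the adjusted p (0.0608 against 0.0487). The median of all genes moved from 0.08 to 0.19 with upper quartile and 0.03 with RLE scaling. Leaving out 1 library could not be fitted for the passage and line comparisons with strain or passage in the model, and was not run without them. Without a neoSF library the strain difference could not be fitted. The neoSF libraries were less deep than the monoiPSC libraries, and *BCL2* had counts of 8.83 and 21.3 there, an NRC of 17.2 and 33.8 after scaling.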
